A study of Pseudotaxus chienii and Amentotaxus argotaenia and Torreya grandis with 9 samples.

Results

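Some transcripts that all 3 species of this study expressed stood well higher in Torreya grandis than in the other trees, and they are described here. RNA came from fresh twigs with their wood and needles. A feature belonged to the set when it was listed at 1 TPM or more in all 9 libraries, when the lowest T. grandis library was at least 3 times the highest of the 6 other libraries, and when the T. grandis mean was at most 20 times the mean of each other species. The set holds 101 of the 11382 features shared by all libraries, which is 0.887% of them, and of the 88609 features listed. TPM is a length-normalised unit in which every library has nearly the same total. The set was chosen by the levels of T. grandis against the others, so these are given as a description and without a test.

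Each species gave 3 libraries. T. grandis and Amentotaxus argotaenia are labelled as not producing taxol, a diterpenoid used against cancer, and Pseudotaxus chienii is labelled as producing it. All plants are labelled as 3 years old and were grown under 1 set of conditions, and the labels name no treatment. Whether replicates were different plants is not said in the labels, and the p-values then measure no more than the spread among the samples at hand, which can be technical. Phenotype and species cannot be told apart, since a single species carries the producing label.

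T. grandis, the Chinese torreya, is an evergreen conifer of the yew family grown for its edible seeds. In a transcript assembly made by Trinity, a feature stands for 1 gene as far as the assembler could tell, and features whose names differ only in the gene number belong to 1 component, a group of sequences that the assembler could not separate fully. Such a group can hold alleles, paralogs, splice forms or the counterparts of 1 gene from different species. The files used here give neither a gene name nor a sequence for an ID, so no role is given to any feature, and the labelled tissue was not checked against marker genes.

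Every library summed to between 999890 and 999947 TPM, and TPM keeps no read count, so the sequencing depth is unknown. P. chienii replicate 1, A. argotaenia replicate 2 and T. grandis replicate 3 had the lowest mean correlation with the other libraries of their species, at 0.906, 0.886 and 0.899 on the log2(TPM + 1) scale over all features. The others were at 0.928 and 0.933 in P. chienii, 0.913 and 0.92 in A. argotaenia and 0.915 and 0.924 in T. grandis. Below, the lowest ones are called the libraries that stood apart, though every species has such a library by definition. The rule of the set, applied to the other species, found 202 features for P. chienii and 103 for A. argotaenia.

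The 101 features were abundant transcripts in T. grandis and ordinary ones elsewhere. Their mean level ran from 10.6 to 1603 TPM in T. grandis, with a median of 65.8 TPM, against medians of 10.3 TPM in P. chienii, and 10.01 TPM for A. argotaenia. Over all 11382 shared features the medians were 13.01 TPM in T. grandis, 13.9 TPM in P. chienii, and 12.4 TPM for A. argotaenia. The median feature of the set ranked at the 88.6 to the 89.0 percentile of the shared features within the T. grandis libraries. It ranked between the 38.01 and the 43.7 percentile within the P. chienii libraries, and between the 40.8 and the 44.3 percentile within the A. argotaenia libraries. In such whole-twig samples, more cells of a type and more RNA per cell cannot be told apart.

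**Figure D1:**
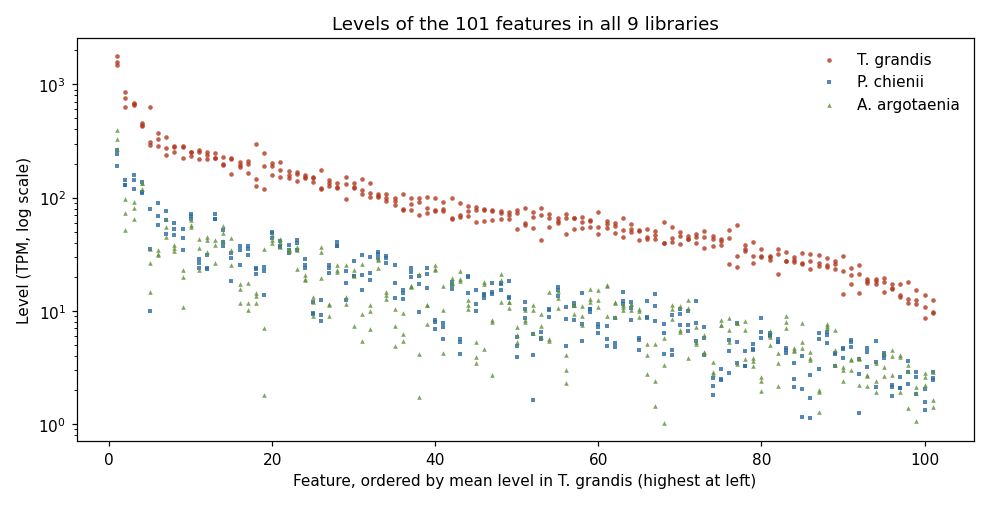
Level in TPM (log scale) of each of the 101 features in all 9 libraries, ordered by the T. grandis mean, with 3 points per species. The T. grandis points lie above all other points of the same feature, as the rule requires, with means from 10.6 to 1603 TPM.

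Together the features held 1.20%, 1.27% and 1.27% of all TPM in T. grandis replicates 1, 2 and 3. They held 0.2195%, 0.218% and 0.224% in P. chienii and 0.181%, 0.191% and 0.2098% in A. argotaenia. The means were 1.25% ± 0.0381 in T. grandis, 0.2205% ± 0.00342 in P. chienii and 0.194% ± 0.0147 in A. argotaenia (SD, n = 3 each). The 10 most abundant features made up 42.3% of this sum in T. grandis, and the first alone made up 12.9%. By mean level in T. grandis, 33 of the 101 features stood at 100 TPM or more, 56 between 25 and 100 TPM and 12 under 25 TPM.

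The gap between T. grandis and the other species was mostly just past the limit of the rule. The lowest T. grandis library was between 3 and 4 times the highest other library in 68 features, between 4 and 5 times in 20, and at least 5 times in 13. Its median was 3.57 and its highest value 10.7. As a ratio of mean TPM, T. grandis stood at a median of 5.60 times P. chienii, with a range from 3.305 to 19.5, and at a median of 6.22 times A. argotaenia, with a range from 3.39 to 19.6. Over the shared features the same medians were 0.9503 and 1.06. Both ratios use the same T. grandis libraries. Among all shared features, the 3 T. grandis libraries lay above the 6 others in 2118, or 18.6%, and below them in 1819, or 16.0%.

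TRINITY_DN37529_c1_g1 was the most abundant of the set. It stood at 1471, 1774 and 1563 TPM in T. grandis, at 265, 191 and 243 TPM in P. chienii and at 329, 269 and 396 TPM in A. argotaenia. Every T. grandis library was far above the others, and the P. chienii libraries lay just below those of A. argotaenia without overlap. Its T. grandis mean of 1603 ± 155 TPM was 6.88 times that of P. chienii and 4.84 times that of A. argotaenia (SD, n = 3).

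TRINITY_DN49964_c0_g2 followed at 627, 851 and 752 TPM in T. grandis, against 129.96, 143 and 129.8 TPM in P. chienii and 72.7, 52.2 and 97.5 TPM in A. argotaenia. TRINITY_DN39085_c0_g1 was at 652, 687 and 676 TPM in T. grandis, against 119, 142 and 158 TPM in P. chienii and 64.3, 91.4 and 81.7 TPM in A. argotaenia. Both ran in the same order of species, with T. grandis highest and A. argotaenia lowest, and in neither did the libraries of P. chienii overlap those of A. argotaenia. TRINITY_DN50954_c1_g1 was at 431, 452 and 437 TPM in T. grandis, 136, 111 and 112 TPM in P. chienii and 119, 134 and 136 TPM in A. argotaenia. There the 6 other libraries overlapped, and its T. grandis libraries were the most even of the set, with a coefficient of variation of 2.54%.

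TRINITY_DN42149_c0_g1 varied most among these abundant features. It was at 290.3, 309 and 627 TPM in T. grandis, 9.91, 79.5 and 35.1 TPM in P. chienii and 14.6, 26.6 and 34.9 TPM in A. argotaenia. The high T. grandis value came from replicate 3, and the lowest P. chienii value from replicate 1. TRINITY_DN53222_c1_g1 was at 374, 331 and 288 TPM in T. grandis, 90.4, 68.3 and 57.8 TPM in P. chienii and 31.03, 31.6 and 34.7 TPM in A. argotaenia. TRINITY_DN44078_c1_g2 was at 236, 275 and 346 TPM in T. grandis, 75.96, 48.1 and 63.2 TPM in P. chienii and 44.7, 64.7 and 55.5 TPM in A. argotaenia. TRINITY_DN44283_c1_g1 was at 281, 284 and 255 TPM in T. grandis, 52.3, 59.9 and 47.1 TPM in P. chienii and 33.8, 36.03 and 37.8 TPM in A. argotaenia. P. chienii and A. argotaenia overlapped at TRINITY_DN44078_c1_g2 and TRINITY_DN42149_c0_g1, while P. chienii was above A. argotaenia in all libraries at the others of this paragraph.

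**Figure D2:**
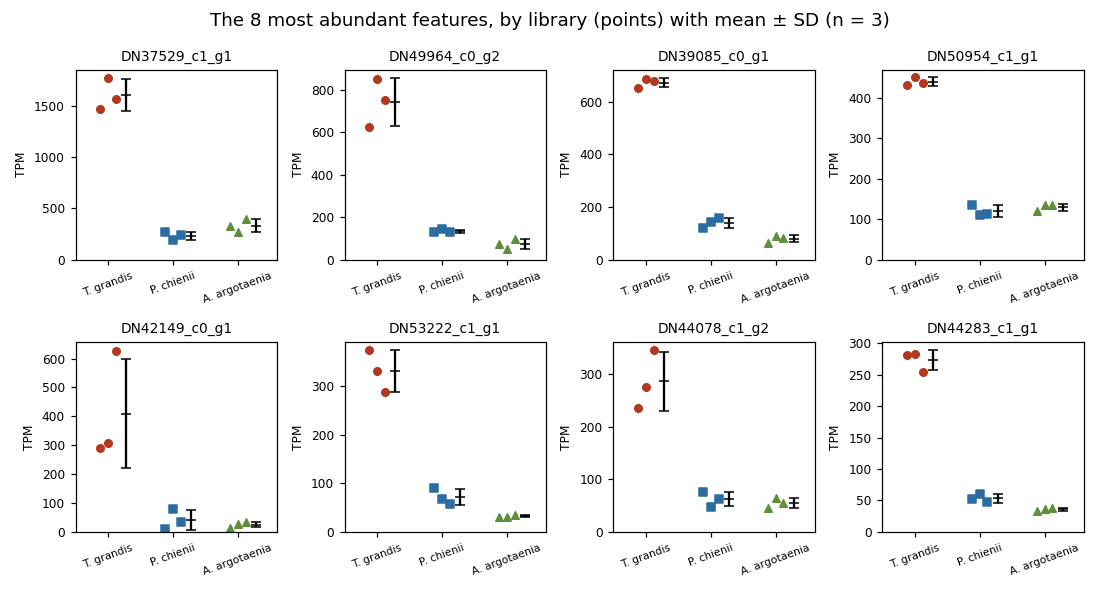
TPM of the 8 most abundant features in each library (points) with the mean ± SD (n = 3) beside them, for T. grandis, P. chienii and A. argotaenia; the vertical axes start at 0 and differ between panels. T. grandis replicate 3 stands apart at DN42149_c0_g1, at 627 TPM against 290.3 and 309 TPM in its other libraries.

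The 4 widest gaps belonged to features less abundant in T. grandis than those described above. Their T. grandis means ran from 28.35 to 145.5 TPM, on both sides of the set's median of 65.8 TPM. TRINITY_DN46422_c0_g1 was at 37.6, 43.2 and 46.1 TPM in T. grandis, 2.15, 1.80 and 2.54 TPM in P. chienii and 2.88, 2.79 and 3.50 TPM in A. argotaenia. Its lowest T. grandis library was 10.7 times the highest other one. TRINITY_DN49524_c0_g1 was at 137, 151 and 149 TPM in T. grandis, 9.31, 9.50 and 12.1 TPM in P. chienii and 8.99, 13.2 and 11.96 TPM in A. argotaenia, a gap of 10.4 times. TRINITY_DN51907_c2_g2 was at 77.1, 72.6 and 53.3 TPM in T. grandis, 5.91, 4.84 and 3.93 TPM in P. chienii and 6.16, 5.32 and 7.17 TPM in A. argotaenia, a gap of 7.43 times. These were also the 3 features whose T. grandis mean was at least 10 times that of both other species. TRINITY_DN43496_c0_g2 came next with a gap of 5.67 times, at 26.9, 28.2 and 29.96 TPM in T. grandis, 2.13, 2.51 and 3.48 TPM in P. chienii and 4.42, 4.74 and 4.54 TPM in A. argotaenia. In the first 3 of these 4 features the coefficient of variation over the T. grandis libraries was between 5.03% and 18.7%, and in the fourth it was 5.49%.

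The levels in the other species were set beside those of features nearly restricted to T. grandis. For 314 features that averaged 100 TPM or more in T. grandis and less than 2% of it in each other species, the median level was between 0.0499% and 0.547% of the T. grandis mean in the P. chienii libraries and between 0.136% and 0.296% in the A. argotaenia libraries. The features of the set stood at 5.12% to 30.3% of the T. grandis mean in P. chienii, with a median of 17.9%, and at 5.09% to 29.5% in A. argotaenia, with a median of 16.1%. The rule bounds the range of the set at both ends and the limit of 2% bounds the values of the 314, so the contrast between them follows from the selection.

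The spread between libraries of a species was compared with that of all shared features. The median coefficient of variation over the 3 libraries was 11.98% in T. grandis, against 15.03% for all shared features. It was 16.4% in P. chienii, against 14.4% for all shared features, and 19.2% in A. argotaenia, against 17.9%. The highest T. grandis library was at least 2 times the lowest in 5 of the 101 features, or 4.95%, against 13.9% of the shared features; the rule favours features with an even T. grandis level. In P. chienii this was so in 14 features, or 13.9%, against 11.8% of the shared features, and in A. argotaenia in 22, or 21.8%, against 16.7%. T. grandis replicate 3, the library that stood apart, was the highest of its species in 40 of the 101 features, or 39.6%, and in 51.8% of the shared features.

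TRINITY_DN48980_c0_g1 and TRINITY_DN47995_c0_g1 had the least even T. grandis libraries, with coefficients of variation of 49.2% and 47.1%. The first was at 295, 145 and 126 TPM in T. grandis, 21.2, 23.4 and 23.7 TPM in P. chienii and 11.8, 14.3 and 13.7 TPM in A. argotaenia. The second was at 57.6, 30.3 and 24.6 TPM in T. grandis, 3.45, 5.27 and 7.78 TPM in P. chienii and 3.39, 7.78 and 7.78 TPM in A. argotaenia. In both, T. grandis replicate 1 was the high library. The widest spread within another species was that of TRINITY_DN42573_c0_g2, singled out after its values were seen, at 120, 189 and 248 TPM in T. grandis, against 1.82, 34.8 and 6.99 TPM in A. argotaenia.

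P. chienii and A. argotaenia were then compared with each other at these features, a contrast the rule did not use directly. All 9 libraries entered 1 limma fit on log2(TPM + 1) over the 75926 features with at least 1 TPM in 3 or more libraries, and a feature counted as changed when its fold change reached 2 and its adjusted p was below 0.05. The rule bounds this contrast, since both species have to lie within a fixed range below the T. grandis level. All 101 features entered the fit, and 22 of them changed, or 21.8%, where 37.2% of the shared features and 62.6% of all tested features did. Of these, 15 were higher in P. chienii, or 14.9%, against 21.7% of the shared features, and 7 were lower, or 6.93%, against 15.5%. With the bound in place, these lower shares are not a result about the set. After trimmed-mean scaling, which moved the median of the shared features to 0.00 from 0.15 on the log2 scale, 9 were higher and 7 lower. With a pseudocount of 5 in place of 1, 4 were higher and 3 lower. Without the 3 libraries that stood apart, 19 were higher and 7 lower. Of the 22, 9 passed in each of the 9 fits that left out 1 library. Counts under these other settings are given without the share of all shared features, so they too are no result about the set. In each of the 22 features, the libraries of P. chienii and A. argotaenia did not overlap, nor did they in 33 of the 79 not called. The call itself favours such a gap, so this adds no support.

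**Figure D3:**
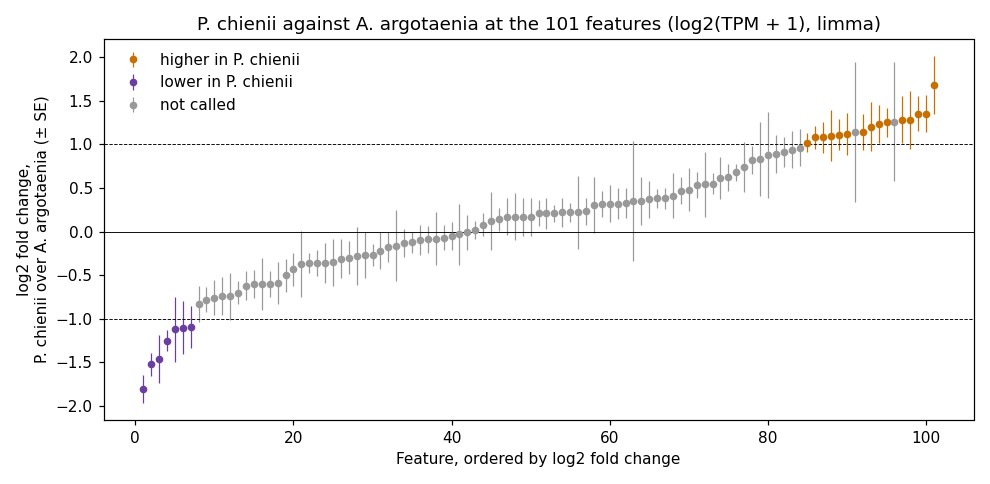
Log2 fold change of P. chienii over A. argotaenia (± SE, from the limma fit on log2(TPM + 1)) for each of the 101 features, in rising order, with dashed lines at 2-fold. The 15 features called higher in P. chienii lie between 1.02 and 1.68 and the 7 called lower between -1.80 and -1.09.

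The median log2 fold change of P. chienii over A. argotaenia was 0.21 over the 101 features and 0.15 over all shared features. It was positive in 59 features and negative in 42, where 55.5% of the shared features had a positive value. The mean levels of both species lay within 2-fold in 76 features, or 75.2%, against 57.8% of the shared features. The rule bounds this contrast, so neither this share nor the counts without overlap that follow are a result about the set. The P. chienii libraries lay above all A. argotaenia libraries in 35 features and below them in 20, where 39.3% and 28.1% of the shared features did so, and the libraries overlapped in the other 46. Of the 79 features not called, 25 had an adjusted p under 0.05 by limma but a change of less than 2-fold.

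The largest rise in P. chienii was that of TRINITY_DN44595_c0_g1. It stood at 11.1, 8.09 and 14.1 TPM in P. chienii and 1.44, 5.05 and 2.39 TPM in A. argotaenia, beside 50.8, 46.98 and 43.2 TPM in T. grandis. The libraries of P. chienii and A. argotaenia did not overlap, and the log2 ratio of P. chienii to A. argotaenia was 1.68 (SE 0.33, limma adjusted p 0.00148). TRINITY_DN46621_c0_g1 was at 37.1, 31.2 and 35.1 TPM in P. chienii and 11.8, 10.1 and 17.8 TPM in A. argotaenia, beside 209.7, 198 and 166 TPM in T. grandis. Its log2 ratio was 1.35 (SE 0.20, limma adjusted p 0.000295), again without overlap. TRINITY_DN53242_c1_g2 rose by as much, with 10.1, 15.2 and 11.6 TPM in P. chienii and 3.87, 5.30 and 3.45 TPM in A. argotaenia, a log2 ratio of 1.35 (SE 0.21, limma adjusted p 0.000341). With a pseudocount of 5 this low feature fell short of 2-fold. At TRINITY_DN43914_c0_g5, P. chienii stood at 34.5, 52.3 and 44.2 TPM and A. argotaenia at 19.8, 10.9 and 23.01 TPM, a log2 ratio of 1.28 (SE 0.27, limma adjusted p 0.00262). Without A. argotaenia replicate 2, the lowest library there, it was 0.98 and so short of 2-fold.

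These 4 features share a graded order, with T. grandis highest, P. chienii between and A. argotaenia lowest. The rule and the call fix that order, and so also which of the ratios below is the larger. Over the 15 features called higher in P. chienii, T. grandis stood at a median of 5.01 times P. chienii and 13.1 times A. argotaenia. One of them, TRINITY_DN53222_c1_g1, is among the most abundant of the set, with a log2 ratio of 1.11 (SE 0.18, limma adjusted p 0.000464). It fell short of 2-fold without P. chienii replicate 1, at 0.93, without the 3 libraries that stood apart, at 0.92, and after trimmed-mean scaling, at 0.95.

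Fewer features were called in the other direction, with P. chienii lowest. Their order, and which of their ratios is the larger, likewise follow from the rule and the call. TRINITY_DN45940_c1_g1 was at 4.13, 5.34 and 5.65 TPM in P. chienii and 22.4, 18.4 and 18.9 TPM in A. argotaenia, beside 70.7, 90.4 and 67.7 TPM in T. grandis. It had the largest fall of the set, with a log2 ratio of -1.80 (SE 0.16, limma adjusted p 1.26e-05). TRINITY_DN52099_c1_g1 was at 6.84, 8.24 and 8.02 TPM in P. chienii and 23.5, 22.9 and 25.2 TPM in A. argotaenia, beside 98.8, 76.8 and 78.3 TPM in T. grandis, a log2 ratio of -1.52 (SE 0.13, limma adjusted p 1.06e-05). In both, the libraries of each species kept close together and those of P. chienii and A. argotaenia did not overlap.

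TRINITY_DN47538_c1_g1 fell as well, with 12.5, 9.27 and 8.09 TPM in P. chienii and 33.3, 19.4 and 36.9 TPM in A. argotaenia, a log2 ratio of -1.46 (SE 0.27, limma adjusted p 0.00125). TRINITY_DN52594_c0_g2 was at 2.46, 3.07 and 2.52 TPM in P. chienii and 7.53, 7.51 and 8.26 TPM in A. argotaenia, a log2 ratio of -1.25 (SE 0.12, limma adjusted p 1.81e-05). With a pseudocount of 5 this low feature, too, fell short of 2-fold. Over the 7 features called lower in P. chienii, T. grandis stood at a median of 14.03 times P. chienii and 4.68 times A. argotaenia. TRINITY_DN49818_c0_g1, the fifth by size, had a log2 ratio of -1.12 (SE 0.37, limma adjusted p 0.0234), and this call was lost without P. chienii replicate 1, at -0.72 with an adjusted p of 0.0572, and without A. argotaenia replicate 1 or 2, at -0.98 and -1.05 with adjusted p of 0.0819 and 0.0705. Without the 3 libraries that stood apart its log2 ratio was -0.65, with an adjusted p of 0.156.

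A further pattern was a like level in both other species. The 4 most abundant features that are the single feature of their component all showed it. TRINITY_DN37752_c0_g1 was at 149, 172 and 158 TPM in T. grandis, 32.7, 38.05 and 34.8 TPM in P. chienii and 34.5, 35.1 and 34.1 TPM in A. argotaenia. TRINITY_DN47382_c0_g1 was at 174, 207 and 151 TPM in T. grandis, 37.2, 36.2 and 41.2 TPM in P. chienii and 36.9, 40.1 and 43.4 TPM in A. argotaenia. In both the 6 other libraries were mixed, and the log2 fold changes of P. chienii over A. argotaenia were 0.02 ± 0.10 and -0.07 ± 0.14 (SE). TRINITY_DN43130_c0_g1 was at 163, 224 and 220.2 TPM in T. grandis, 32.6, 18.3 and 29.4 TPM in P. chienii and 25.2, 43.7 and 34.3 TPM in A. argotaenia, and its log2 ratio was -0.35 ± 0.27 (SE). TRINITY_DN50954_c1_g1, described above, had -0.12 ± 0.12 (SE). These values do not show that both species stood at equal levels. At TRINITY_DN35241_c0_g1 the levels were 203, 189 and 159.7 TPM in T. grandis, 50.1, 43.9 and 48.6 TPM in P. chienii and 39.8, 42.4 and 47.04 TPM in A. argotaenia, a log2 ratio of 0.14 ± 0.13 (SE).

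Some of the most abundant features differed between P. chienii and A. argotaenia by less than 2-fold. TRINITY_DN37529_c1_g1 had a log2 ratio of -0.50 (SE 0.19, limma adjusted p 0.0396). TRINITY_DN49964_c0_g2 had 0.89 (SE 0.22, limma adjusted p 0.0061), which passed 2-fold without A. argotaenia replicate 3, at 1.11. TRINITY_DN39085_c0_g1 had 0.82 (SE 0.16, limma adjusted p 0.00156) and TRINITY_DN44283_c1_g1 had 0.55 (SE 0.12, limma adjusted p 0.00288).

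The components of the features were examined next, since the rule looked at single features. Each of the 101 features belongs to a component of its own. The feature is the single one of its component in 29 cases, or 28.7%, against 35.2% of the shared features and 26.8% of all listed features, and the largest of the components holds 10 features. The other 72 components hold 184 further features. Of those 184, 15 were at 1 TPM or more in all 9 libraries. By mean level, 63 of the 184 were highest in T. grandis, or 34.2%, 59 in P. chienii and 62 in A. argotaenia. Over all features that averaged 1 TPM or more in some species, 30.5% were highest in T. grandis. The share of further features highest in T. grandis was thus near that of all features.

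Within these 72 components the chosen feature carried most of the level in T. grandis more often than elsewhere. It held a median of 92.7% of its component's TPM in T. grandis, 59.7% in P. chienii and 63.3% in A. argotaenia. It held at least 90% in 39 components in T. grandis, 29 in P. chienii and 25 in A. argotaenia, and under 50% in 10, 27 and 27. In 11 components it held at least 90% in every species. The chosen feature was the highest of its component in 62 cases in T. grandis, 46 in P. chienii and 53 in A. argotaenia, and in all 3 species in 38. A feature chosen for a high T. grandis level tends to lead there, so these shares are a description.

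**Figure D4:**
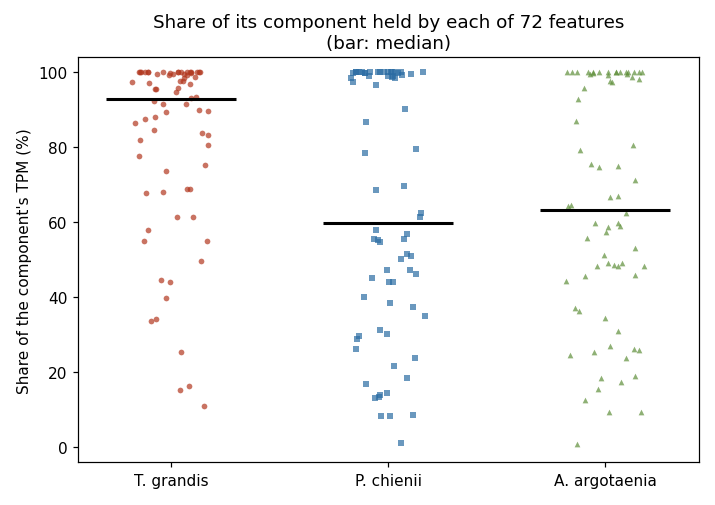
Share of the component's TPM (%, mean of 3 libraries) held by the chosen feature in T. grandis, P. chienii and A. argotaenia, for the 72 components with several features; bars mark the medians of 92.7%, 59.7% and 63.3%. The points of T. grandis crowd near the top, while those of the other species spread down to 1.13% and 0.888%.

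Summed over all features of a component, T. grandis stood lower relative to the others than at the chosen feature. The chosen features were picked for their gap and the further ones were not, so a lower ratio follows in part from the selection. The median ratio of means over the 72 components was 4.32 against P. chienii and 4.66 against A. argotaenia, where the chosen features had medians of 5.93 and 7.06. The component sums of T. grandis were at least 3 times the highest other library in 28 components, above all others by less than that in 37, and not above all others in 7. With the 29 single features, which pass by the rule itself, 57 of the 101 components kept a gap of 3 times. The T. grandis mean was under that of P. chienii in 4 components and under that of A. argotaenia in 1.

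**Figure D5:**
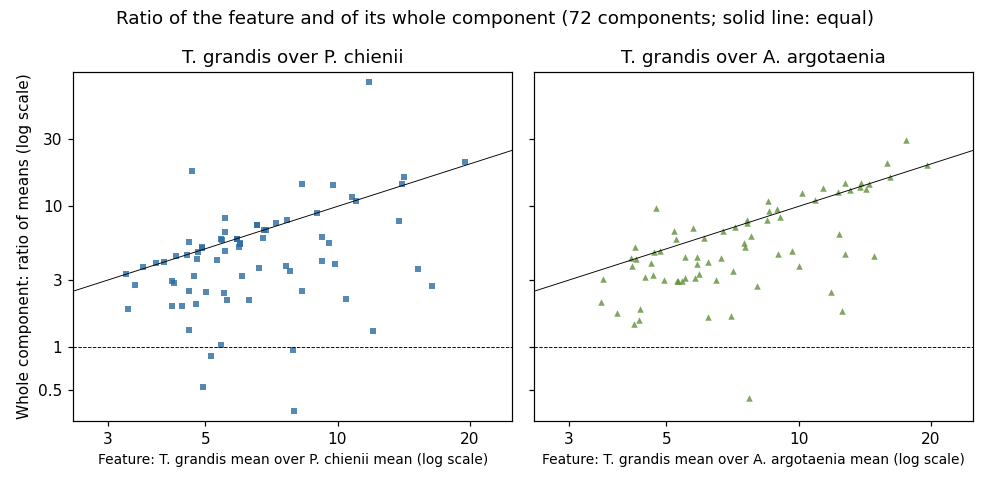
Ratio of the T. grandis mean to the P. chienii mean (left) and to the A. argotaenia mean (right), for the chosen feature (horizontal, log scale) and for its whole component (vertical, log scale), in 72 components; the solid line marks equal ratios and the dashed line a component ratio of 1. Points below the solid line are components in which other features narrow the gap, and 4 points on the left and 1 on the right lie below 1.

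The 5 components in which T. grandis did not lead by mean were singled out after their values were seen. In the component of TRINITY_DN44283_c1_g1, the second feature, TRINITY_DN44283_c1_g2, was listed at 2.40, 0 and 0 TPM in T. grandis, at 264, 231 and 292 TPM in P. chienii and at 0, 0 and 1.00 TPM in A. argotaenia. The component summed to 274 ± 16.7 TPM in T. grandis, 315 ± 24.3 TPM in P. chienii, and 36.2 ± 2.51 TPM for A. argotaenia (SD, n = 3 each). T. grandis and P. chienii thus reached these totals mostly through different features, and A. argotaenia was low in both. Every P. chienii total lay above every T. grandis total, the closest being 291 and 284 TPM.

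In the component of TRINITY_DN39124_c0_g1, the chosen feature averaged 13.02 TPM in T. grandis, 2.45 TPM in P. chienii, and 1.69 TPM for A. argotaenia. TRINITY_DN39124_c0_g3 averaged 1.10 TPM in T. grandis, against 1.16 TPM in P. chienii, and 173 TPM for A. argotaenia, and TRINITY_DN39124_c0_g8 at 41.5 TPM in T. grandis, against 0.163 TPM in P. chienii, and 0.0467 TPM for A. argotaenia. The sum was 84.6 ± 9.02 TPM in T. grandis, 20.3 ± 5.62 TPM in P. chienii, and 195 ± 73.8 TPM for A. argotaenia (SD, n = 3 each). The chosen feature was a small part of each, at 15.3% in T. grandis, 13.1% in P. chienii and 0.888% in A. argotaenia.

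In the component of TRINITY_DN42511_c0_g1 the abundant feature was TRINITY_DN42511_c0_g2, at means of 48.1 TPM in T. grandis, 166 TPM in P. chienii, and 37.4 TPM for A. argotaenia. The sum was 64.3 ± 6.99 TPM in T. grandis and 181 ± 16.7 TPM in P. chienii (SD, n = 3 each). The component of TRINITY_DN51035_c0_g1 summed to 67.7 ± 6.74 TPM in T. grandis, 71.1 ± 5.41 TPM in P. chienii, and 20.7 ± 2.34 TPM for A. argotaenia. That of TRINITY_DN51587_c0_g2 summed to 22.8 ± 3.09 TPM in T. grandis, 43.5 ± 7.80 TPM in P. chienii, and 13.6 ± 0.874 TPM for A. argotaenia, and its feature TRINITY_DN51587_c0_g1 was at 3.99, 2.40 and 7.38 TPM in T. grandis against 28.6, 36.1 and 33.3 TPM in P. chienii. For TRINITY_DN51035_c0_g1 the component totals of T. grandis and P. chienii overlapped, while in the other two components every P. chienii total was above those of T. grandis.

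Shifts in share were ranked by the share in T. grandis less the mean of the shares in P. chienii and A. argotaenia. By this measure TRINITY_DN51587_c0_g2 came first, at 80.5% in T. grandis, 8.46% in P. chienii and 18.9% in A. argotaenia. Its own levels were 17.2, 18.4 and 18.9 TPM in T. grandis, 2.13, 3.51 and 5.42 TPM in P. chienii and 2.42, 3.43 and 1.91 TPM in A. argotaenia. TRINITY_DN51010_c1_g2 held all of its component in T. grandis, at 21.0, 14.4 and 25.5 TPM, while its 5 further features were listed at 0 in the 3 T. grandis libraries. It stood at 3.79, 2.77 and 1.26 TPM in P. chienii and 3.80, 2.21 and 3.78 TPM in A. argotaenia, where it held 44.1% and 26.1% of the component. TRINITY_DN49339_c0_g1 held 86.5% in T. grandis, 30.2% in P. chienii and 15.5% in A. argotaenia. Its own levels were 77.97, 78.8 and 108 TPM in T. grandis, 14.5, 15.2 and 12.6 TPM in P. chienii and 6.28, 9.47 and 5.38 TPM in A. argotaenia, and each species had features of this component that the others lacked or nearly lacked. TRINITY_DN49339_c0_g2 was at 19.7, 22.1 and 22.4 TPM in P. chienii, TRINITY_DN49339_c0_g7 at 19.9, 10.8 and 59.8 TPM in A. argotaenia and TRINITY_DN49339_c0_g8 at 21.5, 8.95 and 9.53 TPM in T. grandis. TRINITY_DN49818_c0_g1 held 91.5% in T. grandis, 14.5% in P. chienii and 44.3% in A. argotaenia.

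Other components were raised in T. grandis beyond the chosen feature. TRINITY_DN51149_c0_g1 was at 32.3, 26.3 and 25.9 TPM in T. grandis, 3.95, 1.15 and 2.05 TPM in P. chienii and 4.74, 5.35 and 7.75 TPM in A. argotaenia. A second feature of its component, TRINITY_DN51149_c0_g6, was at 253, 199 and 165 TPM in T. grandis, 0.07, 0.92 and 0.32 TPM in P. chienii and 0.28, 0.12 and 0.27 TPM in A. argotaenia. The whole component averaged 258 TPM in T. grandis, 3.38 TPM in P. chienii, and 26.6 TPM for A. argotaenia, the widest ratio to P. chienii among the 72, at 76.2 times. This component too was singled out after its values were seen.

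Several of the 8 most abundant features had mates with high levels in 1 or more species. The component of TRINITY_DN49964_c0_g2 averaged 2209 TPM in T. grandis, 267 TPM in P. chienii, and 584 TPM for A. argotaenia. Its feature TRINITY_DN49964_c0_g4 was at 978, 1132 and 1063 TPM in T. grandis, 1.04, 5.71 and 3.77 TPM in P. chienii and 247, 235 and 267 TPM in A. argotaenia. P. chienii instead had TRINITY_DN49964_c0_g1 at 102, 57.1 and 61.04 TPM, a feature listed at 0.45 TPM or less in every library of the others. In the component of TRINITY_DN53222_c1_g1, the mate TRINITY_DN53222_c1_g2 was at 63.2, 56.2 and 96.6 TPM in T. grandis and at 0.16 TPM or less in every other library. In the component of TRINITY_DN44078_c1_g2, the mate TRINITY_DN44078_c1_g5 was at 73.8, 82.2 and 82.8 TPM in T. grandis and at 0.96 TPM or less in every other library. Its mate TRINITY_DN44078_c1_g3 was listed at 0 TPM in all libraries of T. grandis and A. argotaenia and at 102, 81.7 and 85.4 TPM in P. chienii.

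Values beside the limits of the rule show how sharp they are. At the limit of 3 times, TRINITY_DN42109_c0_g2 lay just inside with a gap of 3.02 times, followed by TRINITY_DN45940_c1_g1 at 3.02 and TRINITY_DN50045_c1_g1 at 3.03. Just outside lay TRINITY_DN38171_c2_g1 at 2.997, TRINITY_DN46344_c1_g1 at 2.98 and TRINITY_DN42559_c0_g1 at 2.98. At the limit of 20 times the mean of another species, TRINITY_DN37950_c1_g2 lay inside at 19.6, TRINITY_DN46422_c0_g1 at 19.5 and TRINITY_DN53242_c1_g2 at 17.5, while TRINITY_DN40345_c0_g1 lay outside at 20.02, TRINITY_DN46382_c0_g1 at 20.1 and TRINITY_DN50858_c0_g1 at 20.2. In all, 48 shared features passed the gap of 3 times but exceeded this limit. At the limit of 1 TPM, TRINITY_DN38229_c0_g1, TRINITY_DN39124_c0_g1 and TRINITY_DN42890_c2_g1 lay inside with lowest libraries of 1.03, 1.06 and 1.12 TPM, and TRINITY_DN36848_c0_g1, TRINITY_DN49476_c0_g1 and TRINITY_DN37565_c3_g1 lay outside at 0.99, 0.98 and 0.97 TPM.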

How the data were processed

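RNA-seq of 9 twig libraries, 3 per species, was analysed. Per the labels, Trizol was used for total RNA and library construction was a standard Illumina one. The authors deposited TPM values with 2 decimals, 1 table per library over the same 88609 Trinity features; the unit was read from the sums. Quantifier, versions and filters: not given in the sources used here. How reads of a species were assigned among features that resemble each other is therefore unknown.

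Species came from the sample titles. P. chienii and A. argotaenia were tested on log2(TPM + 1) by limma (version 3.58.1, trend by mean level, R 4.3.3), two-sided, with Benjamini-Hochberg adjustment over 75926 features; the scale understates changes of low features. The fit was tested on simulated data. Sums, shares and figures used Python 3.11.15, pandas 2.3.3, numpy 2.4.6 and matplotlib 3.10.9. The set and the lists were chosen with earlier results of these data known. The features named were the 8 most abundant, the 4 with the widest gap, the 4 largest rises and falls between P. chienii and A. argotaenia, up to 4 of the component with most members (each held 1, so the first by ID), the 3 at each side of each limit, the 4 most abundant single features, the 2 most and least even, and the 4 with the largest component share in T. grandis less the mean share in the others. The features beside the limit of 1 TPM and the mates of the named features were added to this rule.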

Additional observations from a re-analysis of the deposited data

How the results depend on the processing

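The number of features in the set was 101. It was 386 with a minimum gap of 2 times and 33 with 4 times, 54 with a lowest level of 5 TPM, and 163 as component sums, of which 54 were components of the set. Other limits gave 68 to 115. Trimmed-mean scaling gave 98 features, 87 of them in the set, and quantile normalization gave 101, with 84 in the set. Leaving out 1 library gave 107 to 132 and kept at least 97 of the set. With a library left out, the lowest T. grandis value cannot fall and the highest other value cannot rise. The lowest level of a feature cannot fall either. A feature of the set could thus be lost only through the upper limit on the ratio of means, so the number kept does not test how stable the set is. Leaving out P. chienii replicate 1, A. argotaenia replicate 2 and T. grandis replicate 3 together, chosen after seeing the data, gave 193, with 97 of the set. The rule shapes the counts without these libraries in the same way, so the 97 kept there are no test of stability either.

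Between P. chienii and A. argotaenia, 22 features of the set changed, 15 higher and 7 lower. A pseudocount of 5 gave 7, with 4 higher and 3 lower, and trimmed-mean scaling gave 16, with 9 higher. Without a minimum fold the count was 47, with 29 higher and 18 lower, and among shared features 6973, with 4036 higher and 2937 lower. At least 4-fold left 0 by limma, higher or lower, also at an unadjusted p under 0.05, and among shared features 1265, with 712 higher and 553 lower. Leaving out 1 library gave 17 to 22, and 9 of the 22 were called in each of those 9 fits. Leaving out the 3 libraries together gave 26, 19 of them among the 22. Counts given without a share of the shared features show how the calls depend on the setting and are no result about the set. Component sums gave 32 of 101, where 38.3% of the components of shared features changed. No call of a named feature reversed in direction. Features not called, such as TRINITY_DN37752_c0_g1 at a log2 ratio of 0.02 (SE 0.10), have no settled sign.

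With the replicate number as a block, 22 features of the set and 4199 shared features changed. The deviations of same-numbered libraries of P. chienii and A. argotaenia correlated at -0.005, -0.062 and -0.017. Those of different-numbered libraries correlated at -0.068 to 0.11, so no deviation shared by number was seen. This cannot show whether same-numbered samples were collected or handled together, and T. grandis was not included in this check. The median share of its component in P. chienii was 67.7% over features at 1 TPM or more in 3 or more libraries, against 59.7% over all features. The other medians moved by less than the spread between libraries. Read depth is unknown in TPM, so low levels carry a counting error that was not measured.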
